A study of Mus musculus with 4 samples.

Results

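Conventional dendritic cells of the bone marrow (cDCs) are described here: 297 of the 49567 kept barcodes of 4 single-cell libraries, or 0.599%. A barcode stands for the transcripts caught in 1 droplet, and a unique molecular identifier (UMI) count is the number of distinct transcripts read from it. Members had at least 10 UMIs of the MHC class II genes H2-Aa, H2-Ab1 and Cd74 together, and at least 1 UMI of Xcr1, Clec9a, Cd209a or Itgax. They had no UMI of the B cell genes Cd79a and Cd79b or of Siglech, a gene of plasmacytoid dendritic cells. They also had at most 1 UMI of the nonclassical monocyte genes Ace, Cd300e and Adgre4, fewer than 3 UMIs of the macrophage genes C1qa, C1qb and C1qc, and S100a8 and S100a9 below 2% of their UMIs. Because these 18 genes chose the cells, their levels are given as a description and were left out of every test. The mice were 10 weeks old, and the tissue was flow-sorted nucleated bone marrow, with gates not given in the sources used here. There were 2 libraries labelled WT and 2 labelled YAP1 heterozygote; the changed Yap1 allele, the mouse strain, and whether a library held 1 animal or several are not given in the labels, so p-values measure the spread between libraries, which may in part be technical. The series asks how cell percentages and expression differ between these genotypes.

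Conventional dendritic cells take up antigen, cut it in lysosomes and load the peptides onto MHC class II molecules for display to CD4+ T cells. The cDC1 lineage, made under the transcription factors Irf8 and Batf3, is known for passing captured antigen to MHC class I, and the cDC2 lineage, which uses Irf4, is known for priming CD4+ T cells; both need the growth factor receptor Flt3. Marrow is where their precursors arise before most of them leave for other organs. YAP1 switches on transcription with TEAD factors when the Hippo kinases are inactive.

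The class II genes used to find the cells share a promoter module that the transactivator Ciita works through, made of an X box, which RFX factors bind, and a Y box, which NF-Y binds. Promoters were taken from RefSeq (GRCm38.p6), where 8 of 9 class II genes looked up had an entry. The Y box letters GATTGG lay in the 250 bases before a start of each of the 8, but H2-DMa also had a start without them. GCAAC followed by GATTGG on the same strand within 45 bases, standing in for the X box beside the Y box, lay in those bases in 5 of the 8. Of all 32851 promoter windows of that length, 14.6% held GATTGG on either strand and 0.341% held the ordered pair. These shares are per window, whereas the counts above are per gene, and a gene can have several windows. The following windows, 5′ to 3′ along each gene, are shown because they belong to H2-Aa, a gene of the rule, and to other genes of the class II pathway, and are printed with the motif letters in capitals.
H2-Aa, chr17:34287859-34287922, minus strand: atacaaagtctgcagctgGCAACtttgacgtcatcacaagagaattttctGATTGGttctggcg
H2-Eb1, chr17:34305757-34305820, plus strand: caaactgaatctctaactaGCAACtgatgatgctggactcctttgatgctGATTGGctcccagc
H2-Oa, chr17:34092285-34092348, plus strand: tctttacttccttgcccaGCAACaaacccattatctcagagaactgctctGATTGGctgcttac
H2-Ob, chr17:34238797-34238860, plus strand: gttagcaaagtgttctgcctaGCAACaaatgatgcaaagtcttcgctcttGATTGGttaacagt
H2-DMb1, chr17:34153079-34153142, plus strand: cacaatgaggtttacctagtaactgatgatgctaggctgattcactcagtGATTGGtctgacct
A match describes these letters only. Ciita itself was seen in 200 of the 297 cells, at 195 CPM in WT replicate 1 and 221 CPM in WT replicate 2, and at 221 CPM in YAP1 heterozygote replicate 1 and 202 CPM in replicate 2. CPM is the number of UMIs of a gene per 1000000 UMIs of the summed cells. The groups overlapped, and the difference did not pass the test (log2 fold change 0.04 ± 0.17 SE, adjusted p = 0.999).

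In each library 10985 to 13827 barcodes passed the limits of at least 200 genes and at most 10% mitochondrial UMIs, and they held 111902457 to 118579764 UMIs. Of these barcodes, 8355 had 10 or more class II UMIs, 1285 of those had a UMI of a cDC gene, 865 were left without Cd79a and Cd79b, and 510 without Siglech. Against the class II limit the members stood well clear: with all other conditions met, 6 members had 10 to 12 class II UMIs, 9 barcodes just outside had 7 to 9, and 459 had 0 to 2. WT replicate 1 gave 81 members and WT replicate 2 gave 85, while YAP1 heterozygote replicate 1 gave 45 and replicate 2 gave 86. Their median depths were 7612, 7946, 8929 and 7602 UMIs per cell in that order. No cell barcode was shared between libraries among the members. In both genotypes replicate 1 cDCs held Ddx3y UMIs and no Xist UMIs, while replicate 2 cDCs held Xist UMIs and no Ddx3y UMIs, so the libraries of a group differed in sex.

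The label was checked on 11 pan-cDC genes that had no part in the rule. They include class II pathway genes, for which the definitions of the classes made a difference likely. In cDC2, the largest subset, all 11 were higher than in classical monocytes of the same library in all 4 libraries, as a description and with no test. Flt3, the cytokine receptor that drives DC development, was seen in 180 of 297 cells and read 91.6, 141, 185 and 156 CPM in cDC2 (here and below, 4 values run over WT replicate 1, WT replicate 2, YAP1 heterozygote replicate 1 and YAP1 heterozygote replicate 2, and pairs run over replicates 1 and 2), beside a mean of 15.4 CPM in classical monocytes. Zbtb46, a transcription factor that marks the cDC lineage among myeloid cells, read 14.6, 20.2, 18.8 and 26.9 CPM in cDC2, and 0.562 CPM in classical monocytes. H2-Eb1, a class II beta chain gene, is no check of the label, since members were chosen for class II UMIs and classical monocytes for fewer than 10 of them. It read 3265, 5820, 4842 and 4925 CPM, beside a mean of 3.01 CPM in classical monocytes and 809 CPM in nonclassical monocytes. Flt3 did not set cDC2 apart from plasmacytoid dendritic cells, which averaged 166 CPM, but Zbtb46 averaged 3.497 CPM there.

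The cDC2 cells also carried monocyte transcripts. The summed level of 15 monocyte markers was 12890 to 14400 CPM in cDC2, 26130 to 31860 CPM in classical monocytes and 1891 to 6907 CPM in cDC1. Lyz2, the lysozyme gene, read 7123 to 8597 CPM in cDC2 and averaged 18420 CPM in classical monocytes. Ly6c2, a surface marker of classical monocytes, was at 916, 462, 339 and 600 CPM in cDC2 against 2972 ± 66.4 CPM (SD, n = 4) in classical monocytes. Csf1r, the M-CSF receptor gene, read 199 to 233 CPM in cDC2 and 230 CPM in classical monocytes. Classical monocytes were chosen for UMIs of Ly6c2, Ccr2 and Csf1r. Their levels of these genes, and part of their marker sum, therefore follow from that choice. Whether some members are monocytes or cells between these states was not tested.

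**Figure D1:**
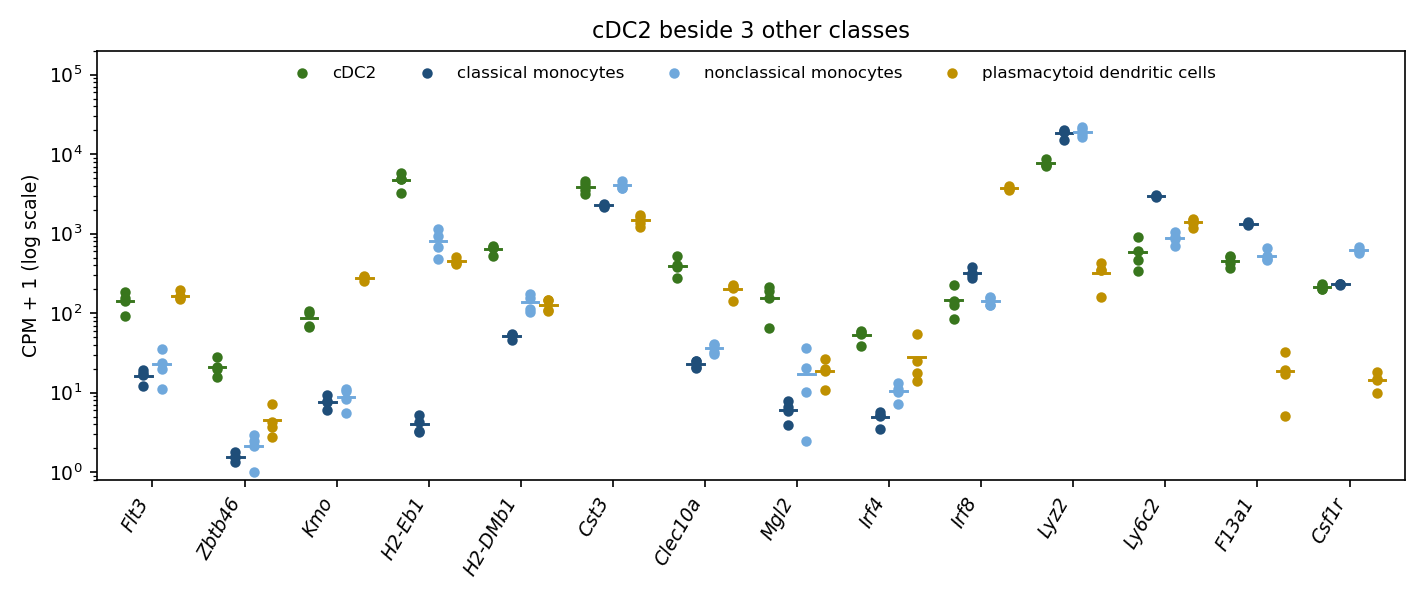
Level of 14 genes in cDC2 and 3 other classes, as CPM + 1 on a log axis; each point is 1 of 4 libraries and each bar is their mean. Zbtb46 and Clec10a are higher in cDC2 than in classical monocytes, with Zbtb46 at a low level in cDC2 as well. H2-Eb1 is also higher in cDC2, but it is a class II gene whose contrast follows from how both classes were defined. Lyz2 and Ly6c2 are highest in monocytes and still present in cDC2, and classical monocytes were chosen for Ly6c2 UMIs.

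The rule's own genes gave 4 kinds of member. Cd209a, a C-type lectin gene of cDC2, was seen in 255 members, Itgax, the gene of the integrin CD11c, in 90, Clec9a, a receptor for dead cells on cDC1, in 59, and Xcr1, the chemokine receptor of cDC1, in 12. Cd209a was found in 83.5% to 90.1% of members of a library (median depths above), in 0.580% to 0.689% of barcodes with both Cd79a and Cd79b (median 2881 to 3375 UMIs), in 4.25% to 5.93% of classical monocytes (median 8751 to 10096 UMIs) and in 27.7% to 35.5% of plasmacytoid dendritic cells. Clec9a and Itgax did not set members apart from plasmacytoid dendritic cells. Clec9a was found in 16.3% to 28.9% of members of a library and in 22.2% to 26.9% of plasmacytoid dendritic cells. Itgax was found in 18.5% to 38.8% of members and in 31.5% to 42.0% of plasmacytoid dendritic cells. Xcr1 was not seen in that class. The levels of these 4 genes in summed cDCs overlapped between genotypes. Cd209a was at 660 and 1047 CPM in WT and 885 and 1236 CPM in YAP1 heterozygotes. By these genes, 220 members with Cd209a and no Xcr1 or Clec9a were taken as cDC2 (74.1%), 27 with Xcr1 or Clec9a and no Cd209a as cDC1 (9.09%), 35 held both kinds (11.8%) and 15 had Itgax alone (5.05%). The cDC1 cells were the deepest, with a median of 14620 UMIs beside 7824 in cDC2, and a deep cell is more likely to show a UMI of a rare transcript.

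Genes with no part in that split followed it, as a description without a test. Of 16 cDC1-list genes with at least 20 UMIs in the 2 subsets, 15 were higher in cDC1 in all 4 libraries, and of 21 cDC2-list genes 14 were higher in cDC2 in all 4. The cDC2 list was not particular to cDC2: its summed level was 14390 to 15920 CPM there, 20260 to 26030 CPM in classical monocytes and 23980 to 29460 CPM in nonclassical monocytes, and 9 of 14 monocyte markers were also higher in cDC2 than in cDC1 in all 4 libraries. Irf8, the transcription factor that directs cDC1 fate, read 2191, 2062, 1408 and 2418 CPM in cDC1, against 83.2, 125.1, 143 and 224 CPM in cDC2. It was not particular to cDC1, with 3570 to 3962 CPM in plasmacytoid dendritic cells. The summed cDC1 list, which includes Irf8, read 5163 to 8544 CPM in cDC1 and 581 to 876 CPM in cDC2. In plasmacytoid dendritic cells that sum was 3897 to 4289 CPM. Id2, an inhibitor of E proteins needed for cDC1, averaged 1390 ± 385 CPM in cDC1 and 139 ± 45.7 CPM in cDC2 (SD, n = 4). Tlr3, a sensor of double-stranded RNA, read 83.4, 125.3, 136 and 205 CPM in cDC1, while cDC2 had none in 3 libraries and 1.79 CPM in YAP1 heterozygote replicate 2. Wdfy4, which is needed for cross-presentation by cDC1, averaged 460 CPM in cDC1 and 62.7 CPM in cDC2, and Cst3, the gene of the protease inhibitor cystatin C, 17070 and 3859 CPM. Cadm1, an adhesion gene of cDC1, was the exception in that list, with no UMI in either subset of WT replicate 1.

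On the cDC2 side, Mgl2 and Clec10a encode galactose-type lectins. Mgl2 was not detected in cDC1 of any library and read 154, 188, 64.0 and 210 CPM in cDC2. Clec10a averaged 396 ± 100.3 CPM in cDC2 and 37.8 ± 43.5 CPM in cDC1. Irf4 and Cd209d likewise had no cDC1 UMI and averaged 51.9 and 51.7 CPM in cDC2. Sirpa, an inhibitory receptor that marks cDC2, averaged 225 CPM in cDC2 and 16.01 CPM in cDC1, and Cybb, the NADPH oxidase subunit, 957 and 88.2 CPM. The cDC1 sums came from only 6 to 9 cells and 83967 to 102567 UMIs a library, so a gene without UMIs there can be present at a low level.

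**Figure D2:**
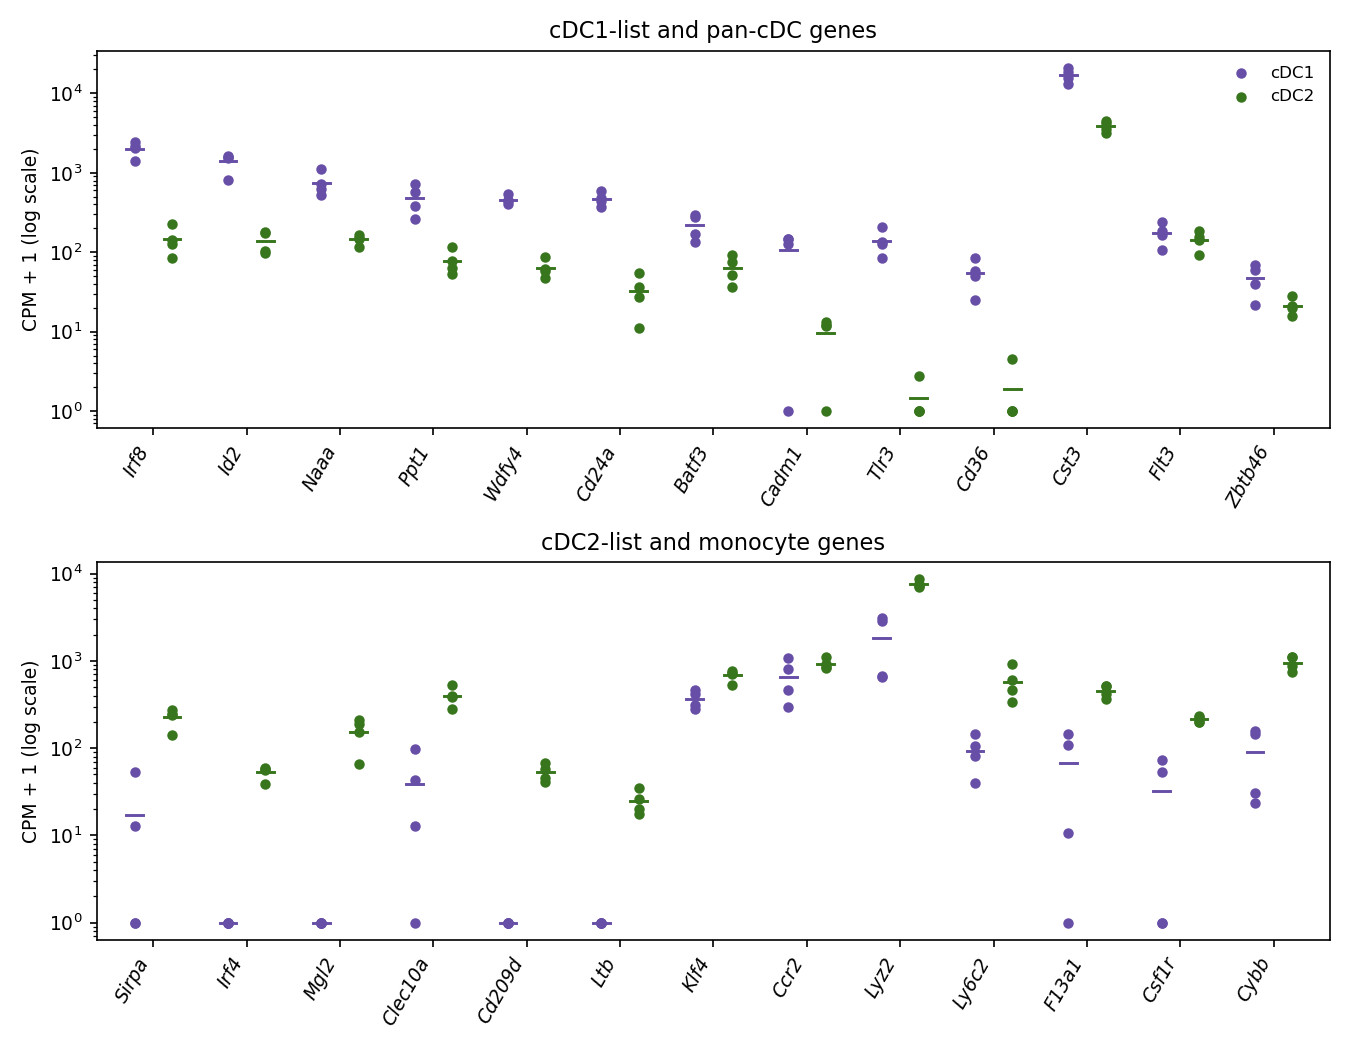
Level of 26 genes in cDC1 and cDC2, as CPM + 1 on a log axis; each point is 1 of 4 libraries and each bar is their mean. Irf8, Id2 and Tlr3 are higher in cDC1 in all 4 libraries, and Irf4, Mgl2 and Cd209d are at 0 CPM in cDC1.

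Dividing cells were found in both subsets. At least 2 UMIs of Mki67 and Top2a, genes of cycling cells, were seen in 43 of 297 members (14.5%), in 9 of 27 cDC1 (33.3%) and in 24 of 220 cDC2 (10.9%). Of 30 G2/M genes, 20 were higher in cDC1 in all 4 libraries and none in cDC2; the greater depth of cDC1 cells moves with the per-cell shares. Of 17 genes of mature, migrating DCs, 15 had at least 1 UMI. The summed level of this list was 461 to 711 CPM in cDCs and 286 to 342 CPM in classical monocytes. It was not particular to cDCs, with 696 to 937 CPM in nonclassical monocytes and 536 to 596 CPM in plasmacytoid dendritic cells. Marcks, Tmem123 and Samsn1, the members with the highest levels, were seen in 209, 130 and 127 cells. Fscn1 and Il12b had no UMI, Ccr7, the receptor that leads DCs to lymph nodes, was seen in 5 cells, and 32 of 35 UMIs of Ccl22 in WT replicate 2 came from 1 cell.

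In WT replicate 1, cDCs made up 0.624% of kept barcodes (0.502% to 0.774%, 95% Wilson interval), and in WT replicate 2 they made up 0.723% (0.585% to 0.892%). In YAP1 heterozygote replicate 1 the share was 0.410% (0.306% to 0.548%), and in replicate 2 it was 0.622% (0.504% to 0.767%). YAP1 heterozygote replicate 1 was low, and the other YAP1 heterozygote library lay just under WT replicate 1. The means were 0.673 ± 0.070% in WT and 0.516 ± 0.150% in YAP1 heterozygotes (SD, n = 2), a log2 difference of -0.41. The exact two-sided permutation test gave p = 0.333, the smallest that 2 libraries against 2 allow, so this difference could not have passed. The groups overlapped when class II was required at 20 UMIs (-0.38, exact permutation p = 0.667). They also overlapped when kept barcodes with at least 3000 UMIs were thinned to 3000 UMIs (-0.20, exact permutation p = 0.667). The rule was applied anew to the thinned counts, so cells could enter as well as leave. Without YAP1 heterozygote replicate 1 the difference was -0.11. The intervals cover counting error only, and the sort can set such shares.

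The cDC1 share of cDCs was 7.41% and 7.06% in WT (6 of 81 and 6 of 85 cells), and 13.3% and 10.5% in YAP1 heterozygotes (6 of 45 and 9 of 86 cells). The 95% Wilson intervals, which spanned 3.28% to 15.2% over the WT libraries and 5.60% to 26.2% over the others, overlapped widely, and the log2 difference of 0.71 had an exact permutation p of 0.333. After thinning to 3000 UMIs the direction was the opposite (log2 difference -0.29). The cDC1 shares were then 8.96% and 8.70% in WT and 5.88% and 8.89% in YAP1 heterozygotes. They rested on 3 to 8 cDC1 cells a library, chosen anew from the thinned counts. The cDC2 share was 73.5 ± 2.51% in WT and 73.4 ± 6.38% in YAP1 heterozygotes (SD, n = 2; exact permutation p = 1.0).

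**Figure D3:**
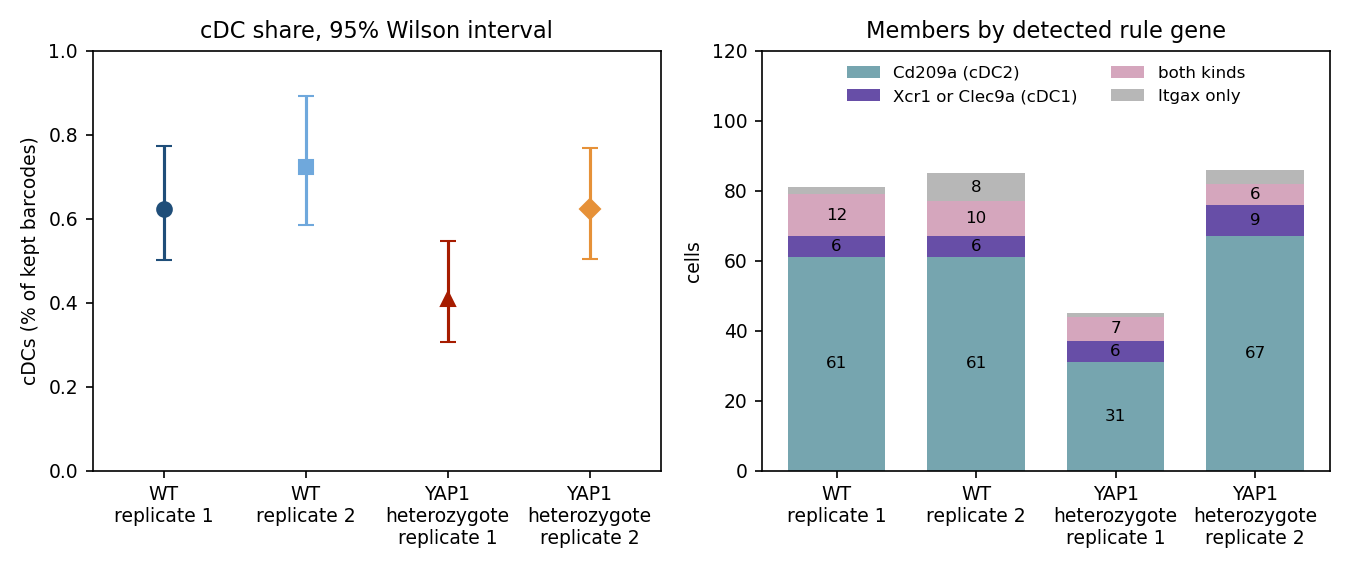
Left, cDCs as a percentage of kept barcodes in each library with 95% Wilson intervals; right, number of members of each kind in each library as stacked bars (segments under 6 cells carry no number). YAP1 heterozygote replicate 1 has the lowest share, 0.410%, and cDC2 make up most members in every library.

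No gene passed the genotype test in cDCs. UMIs were summed over the members of each library (434913 to 743156 UMIs) and 6808 genes were tested with edgeR's quasi-likelihood test: 0 were called at an adjusted p of 0.05 (0.0%), and 279 (4.1%) had an unadjusted p under 0.05, 96 higher (1.41%) and 183 lower (2.69%) in YAP1 heterozygotes. DESeq2 called 1 gene (0.0147%), Tnfaip3, and had 42 genes (0.617%) under that unadjusted p. In cDC2 alone, edgeR called 0 of 5699 genes with 208 (3.65%) under an unadjusted p of 0.05, and DESeq2 called 0 with 28. The libraries did not overlap between genotypes for 993 genes higher (14.6%) and 1157 lower (17.0%) in YAP1 heterozygotes. In simulated cDC data edgeR recovered 37.5% of genes changed 2-fold and 88.9% of those changed 4-fold. The simulation used the spread typical of a gene's level, without gene-specific spread or single cells with outlying counts. Recovery in the real data may be lower. The count depended on WT replicate 2, without which 117 genes were called, and on WT replicate 1, without which 8 were. In cDC2, leaving out any 1 of the 4 libraries gave calls: 35 and 73 genes when a WT library (replicate 1, then 2) was dropped, and 62 and 38 when a YAP1 heterozygote library was dropped. Leaving out a library breaks the balance of the sexes between the groups.

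The genes of smallest p with lower values in YAP1 heterozygotes included 3 of the NF-kB response, the pathway that switches DCs from resting to activated. Tnfaip3 encodes A20, a deubiquitinase that dampens NF-kB signalling (chr10:19000910-19015657). It read 236 and 136 CPM in WT and 46.0 and 48.2 CPM in YAP1 heterozygotes, and the groups did not overlap. It was seen in 48 of 81 and 37 of 85 WT cells and in 10 of 45 and 22 of 86 YAP1 heterozygote cells. The log2 fold change was -1.94 ± 0.27 (SE), with an adjusted p of 0.212 by edgeR and 0.00357 by DESeq2. Under edgeR it was called when class II was required at 20 UMIs (adjusted p = 0.0392). Dropping WT replicate 1 gave a log2 fold change of -1.55, and dropping WT replicate 2 gave -2.24. Among the YAP1 heterozygotes, dropping replicate 1 gave -1.90 and dropping replicate 2 gave -1.99. Each of these fits leaves 1 library in a genotype, so only the effect size is given for them. Tnfaip3 was also called by edgeR on all 4 libraries with the replicate number as a block (-1.87, adjusted p = 7.03e-12). That number marks the sex of the libraries in both genotypes, and the labels do not say what else it marks. The block fit left 1 degree of freedom for the spread between libraries, so its p rested mostly on a spread shared over genes.

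Cd83 encodes a surface protein of activated DCs that keeps class II molecules at the membrane (chr13:43784775-43803132). It read 193 and 140 CPM in WT and 46.0 and 67.5 CPM in YAP1 heterozygotes, again without overlap (log2 fold change -1.48 ± 0.24, adjusted p = 0.355 by edgeR). Rel encodes the NF-kB subunit c-Rel (chr11:23736847-23770970). It read 288 and 275 CPM in WT and 143 and 153 CPM in YAP1 heterozygotes (-0.90 ± 0.16, adjusted p = 0.554 by edgeR), with little spread inside either group. Neither gene passed the test, and neither did the other 7 genes chosen by the same rule. With the replicate block, and so with sex as a term, the call changed: edgeR called all 10 (adjusted p of 2.48e-07 for Cd83, 0.000846 for Rel, and at most 0.0163 for the other 7), among 27 genes in all. Those 27 also held Elane, Prtn3 and Hbb-bs, whose UMIs came mostly from 1 cell of 1 library. Among the 10, Cd63 was seen in only 24 cells, and 1 cell gave 83.3% of its UMIs in WT replicate 1. In WT replicate 2, 1 cell gave 39.5% of them. Without Itgax-only members the log2 fold change of Cd63 was -0.69, beside -1.60 with them. In cDC2 the block called Hbb-bs and no other gene. The limit given above for the block fit, with its 1 degree of freedom, holds for all of these calls.

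Those 7 were Cdkn1a, an inhibitor of the cell cycle, Fosl2, an AP-1 subunit, Pde4b, a cAMP phosphodiesterase, Nr4a1, a nuclear receptor induced by stimulation, Pdlim1, a PDZ and LIM domain protein, Cd63, a tetraspanin of endosomes, and Gpr132, a G protein-coupled receptor. Their log2 fold changes ran from -1.62 for Pdlim1 to -1.01 for Nr4a1, with adjusted p from 0.905 to 0.968 by edgeR. Pde4b read 193 and 90.2 CPM in WT and 50.6 and 42.7 CPM in YAP1 heterozygotes, so WT replicate 1 stood far above WT replicate 2. Nr4a1 read 369 and 253 CPM in WT and 122 and 176 CPM in YAP1 heterozygotes.

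**Figure D4:**
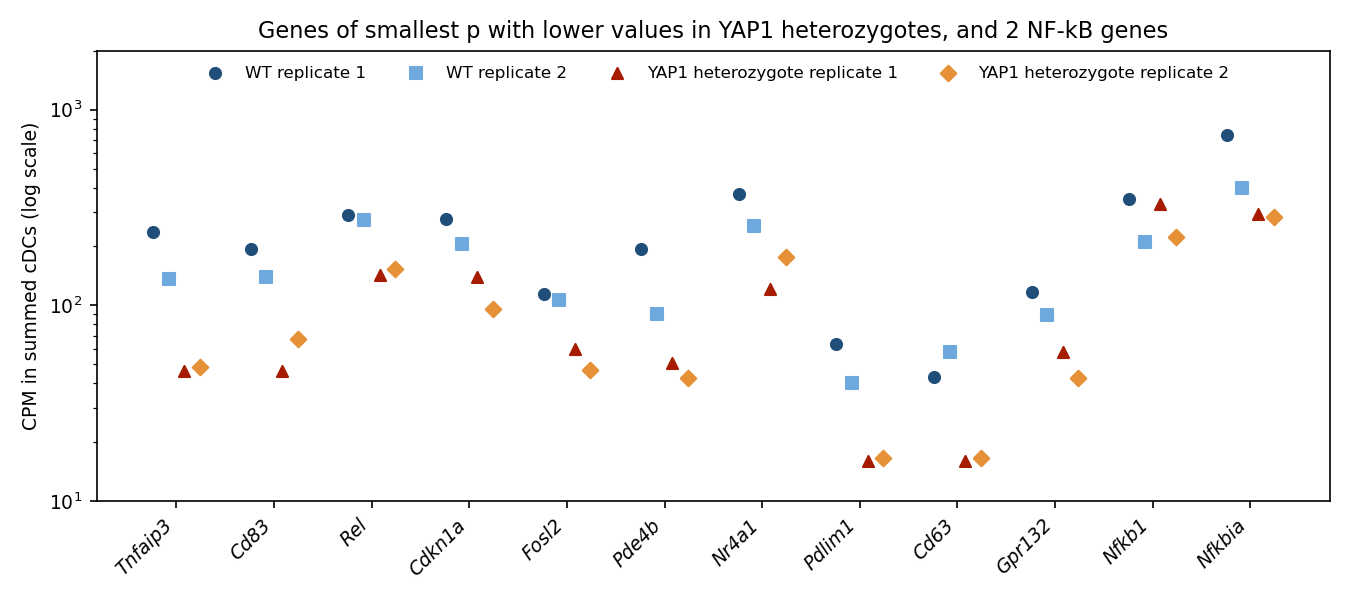
CPM in summed cDCs, on a log axis, of the 10 genes of smallest p that were lower in YAP1 heterozygotes and of Nfkb1 and Nfkbia; each point is 1 library. The 10 genes show no overlap between genotypes, as the rule that chose them required, and Nfkb1 overlaps (350 and 210 CPM in WT, 331 and 224 CPM in YAP1 heterozygotes).

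Across the NF-kB list, 21 of 25 tested genes were lower in YAP1 heterozygotes, 0 were called, and the median log2 fold change was -0.49, beside 50.1% lower and a median of 0.00 over all genes tested. For 12 of the 25 the libraries did not overlap, against 17.0% of all genes. By role, inhibitors and feedback genes included Nfkbia, the gene of the inhibitor IkBa, at 745 and 397 CPM in WT and 292 and 282 CPM in YAP1 heterozygotes (log2 fold change -0.96 ± 0.24, adjusted p = 0.999 by edgeR). The subunit genes Nfkb1 and Rela had values near 0 (0.00 and 0.03), while Nfkb2 was at -0.61 and Relb at -0.48. The kinase genes Ikbkb and Chuk were at -0.19 and 0.28. The median stayed between -0.61 and -0.42 under every alternative run, including each left-out library.

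Of the 9 lower genes with a RefSeq promoter entry, 2, Tnfaip3 and Rel, held GAAATNCCC, letters of 1 class of kB site, on either strand in the 250 bases before a start. The share over all promoter windows of that length was 0.828%, and Nfkbia held it as well. That share is per window, whereas a gene with several starts had several windows in which to match. Tnfaip3 also had a start without a match. These stretches are shown, with the matched letters in capitals, because the NF-kB genes lead the lower values; a match is not evidence of binding.
Tnfaip3, chr10:19015538-19015570, minus strand: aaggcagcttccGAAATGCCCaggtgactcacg
Tnfaip3, chr10:19015411-19015433, minus strand: gaatttccatcgGAAATCCCCct
Rel, chr11:23771039-23771071, minus strand: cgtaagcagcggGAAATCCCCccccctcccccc
Nfkbia, chr12:55492655-55492687, minus strand: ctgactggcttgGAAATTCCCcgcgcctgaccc

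Lower NF-kB values were also seen in the 3 other classes. In classical monocytes 23 of 28 tested genes of the list were lower (median log2 fold change -0.44). In nonclassical monocytes 26 of 27 were lower (-0.41), and in plasmacytoid dendritic cells 21 of 25 (-0.40). The medians over all genes tested in these classes were 0.00, 0.01 and 0.01. The difference of the genotype difference between cDCs and each of 3 other classes was fitted over 9722 genes with edgeR. In that fit 0 genes were called against classical monocytes, nonclassical monocytes or plasmacytoid dendritic cells (408, 449 and 511 under an unadjusted p of 0.05), with 0 by DESeq2 in each. With 2 libraries a genotype this test can miss differences between classes, so 0 calls do not show that the classes were alike. Tnfaip3 in classical monocytes read 234 and 48.8 CPM in WT and 31.1 and 25.7 CPM in YAP1 heterozygotes, and its cDC value minus the monocyte value was 0.18 ± 0.39 (log2, SE; adjusted p = 1.0). In nonclassical monocytes it read 411 and 114 CPM in WT and 74.9 and 63.1 CPM in YAP1 heterozygotes (cDC minus nonclassical -0.14 ± 0.43). In plasmacytoid dendritic cells it read 360 and 129 CPM in WT and 63.3 and 64.7 CPM in YAP1 heterozygotes, where edgeR called it (log2 fold change -1.93, adjusted p = 0.0308; 13 of 9129 genes called, 0.142%, with 1 higher, 0.011%, and 12 lower, 0.131%). WT replicate 1 was the highest library in every class, by more in the monocytes than in cDCs. These classes come from the same libraries and do not add independent replicates.

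None of the genes of smallest p with higher values in YAP1 heterozygotes was called. They included Trim35, Chil3, Fgd4, Pcmtd1, Slc1a5, Plcl2, Rrm2, Rhob and Map2k2, with log2 fold changes of 0.56 to 1.64 and adjusted p of 0.999 by edgeR for each. Trim35, a ubiquitin ligase, read 21.6 and 29.6 CPM in WT and 52.9 and 62.0 CPM in YAP1 heterozygotes. Slc1a5, a glutamine transporter gene, read 31.7 and 26.9 CPM in WT and 52.9 and 55.1 CPM in YAP1 heterozygotes. Chil3, a chitinase-like gene of monocytes, owed 73 of its 98 UMIs in YAP1 heterozygote replicate 1 to 1 cell.

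The cDC1 gene list lay on the other side: 12 of 12 tested genes were higher in YAP1 heterozygotes, 0 were called, and the median log2 fold change was 0.30. Of the 12, 6 did not overlap, against 14.6% of all genes. Id2 read 342 and 304 CPM in WT and 373 and 390 CPM in YAP1 heterozygotes (0.26 ± 0.15, adjusted p = 0.999 by edgeR). Tlr3 read 17.3 and 14.8 CPM in WT and 29.9 and 31.7 CPM in YAP1 heterozygotes (0.96 ± 0.38). The share of cDC1 cells moves with this list, and in summed counts more cDC1 cells and more RNA of these genes per cell cannot be told apart. In the sums of cDC2, which leave out the cells taken as cDC1, 7 of 8 tested genes of the list were higher, with a median of 0.55 and 0 called; Irf8 was at 0.86 ± 0.29 and Id2 at 0.86 ± 0.23 (adjusted p of 1.0 and 0.756 by edgeR). With WT replicate 2 left out the median was 0.57, and with WT replicate 1 left out 3 of 16 tested genes were lower. The genotype test within cDC1 was not run, since 6 to 9 cells a library were under the minimum of 20.

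**Figure D5:**
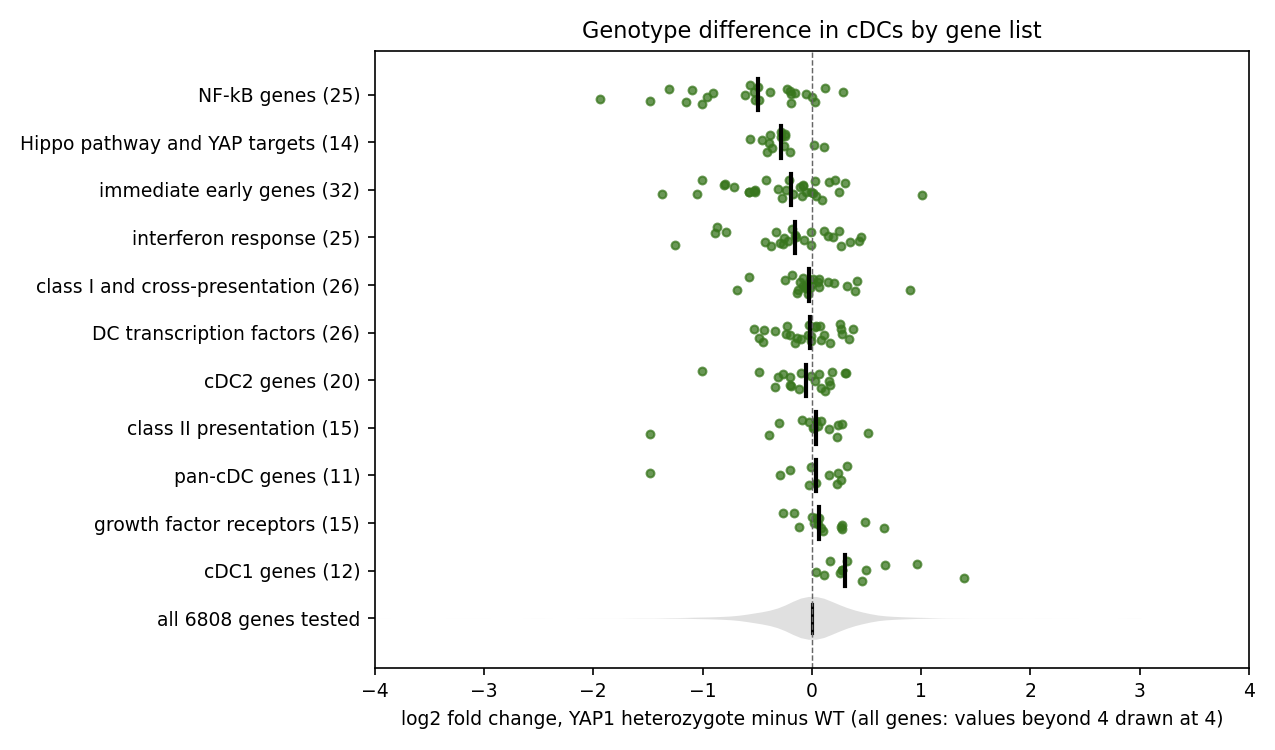
Log2 fold change, YAP1 heterozygote minus WT, of the tested genes of 11 lists in summed cDCs; each point is a gene, each black bar a median, and the violin holds all 6808 genes tested. NF-kB genes have the lowest median of these lists (-0.49) and cDC1 genes the highest (0.30).

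For class II presentation 10 of 15 tested genes were higher, 5 were lower, 0 were called and the median was 0.04, with -0.10 without WT replicate 1 and 0.22 without WT replicate 2. H2-Eb1 read 2922 and 5447 CPM in WT and 4433 and 4880 CPM in YAP1 heterozygotes, with the WT libraries further apart than the group means (0.16 ± 0.25). H2-DMa and H2-DMb1, which load peptides, were at 0.23 ± 0.16 and 0.24 ± 0.17. Ctss, the protease that trims the invariant chain, was at 0.01 ± 0.16 and Ctsb, another cathepsin, at -0.30 ± 0.16. The class I and cross-presentation list had 11 of 26 tested genes higher and 15 lower, with a median of -0.02; B2m, the light chain of class I, read 1761 and 1924 CPM in WT and 1757 and 1897 CPM in YAP1 heterozygotes. Psmb9, an immunoproteasome subunit, read 206 and 237 CPM in WT and 251 and 328 CPM in YAP1 heterozygotes (0.41 ± 0.19). The adjusted p of each gene named so far in this paragraph was 0.999 by edgeR. The smallest in the class II list was 0.355 by edgeR, that of Cd83, which was lower as given above.

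The genes that set DC identity gave medians near 0. Among 26 tested DC transcription factors, 11 were higher and 15 lower, with a median of -0.01: Spi1, the myeloid master regulator PU.1, read 381 and 361 CPM in WT and 338 and 379 CPM in YAP1 heterozygotes, and Klf4, needed for some cDC2, 556 and 727 CPM against 614 and 684 CPM. Of 15 growth factor receptors 12 were higher, with a median of 0.07. Flt3 read 123 and 136 CPM in WT and 161 and 147 CPM in YAP1 heterozygotes (0.26 ± 0.18), and Csf2ra, the GM-CSF receptor alpha chain, 221 and 260 CPM against 218 and 256 CPM. The cDC2 list had 9 of 20 tested genes higher and 11 lower, with a median of -0.05. None of these genes was called.

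Sensors of microbes gave a mixed picture. Of 16 tested Toll-like receptor genes and adaptors 8 were higher and 8 lower, with a median of -0.03. Cd14, the co-receptor for lipopolysaccharide, read 56.2 and 45.8 CPM in WT and 25.3 and 24.8 CPM in YAP1 heterozygotes (-0.998 ± 0.30), and Tlr2, a receptor for bacterial lipopeptides, 82.2 and 78.1 CPM against 39.1 and 51.0 CPM (-0.78 ± 0.24). Both had no overlap and an adjusted p of 0.999 by edgeR. Among C-type lectin receptors 7 of 12 were higher, with a median of 0.24; Clec4b1, carried by cDC2, read 107 and 152 CPM in WT and 218 and 167 CPM in YAP1 heterozygotes (0.57 ± 0.23, adjusted p = 0.999 by edgeR). Of 13 tested cytokines and chemokines 7 were higher and 6 lower. Ccl4, a chemokine for T cells and monocytes, read 304 and 275 CPM in WT and 66.7 and 198 CPM in YAP1 heterozygotes (-1.03 ± 0.34), so the YAP1 heterozygote libraries were far apart.

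Immediate early genes, which stimulation or tissue handling can switch on within minutes, were not uniform. Of 32 tested, 23 were lower in YAP1 heterozygotes and 9 higher, 0 were called, and the median was -0.19; 14 were lower without overlap, against 17.0% of all genes. Atf3, a stress-induced factor, read 1862 and 1624 CPM in WT and 1127 and 1265 CPM in YAP1 heterozygotes (-0.52 ± 0.14, adjusted p = 0.999 by edgeR). Fos, the AP-1 subunit most tied to fresh stimulation, went the other way, at 2714 and 2962 CPM in WT and 3486 and 3026 CPM in YAP1 heterozygotes (0.21 ± 0.14). Handling of the samples was not tested. Without WT replicate 2 the median of the immediate early genes was -0.08. Of 25 interferon response genes 17 were lower, with a median of -0.15; without YAP1 heterozygote replicate 1 the median was 0.22 and 8 of 27 were lower, so this direction rested on that library.

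Yap1 (chr9:7931999-8004596) had no UMI in any of the 297 cells. A count of 0 among 2598084 UMIs allows up to 1.15 CPM, and 4.04 to 6.90 CPM in single libraries, so no genotype difference in Yap1 was detectable, and the level of a 3′ tag would not show which allele it came from. Its paralog Wwtr1 had 1 UMI, and Tead1 to Tead4, the DNA-binding partners of YAP1, had none. Of 27 Hippo pathway genes and YAP targets 14 could be tested: 12 were lower and 2 higher in YAP1 heterozygotes, 0 were called, and the median was -0.28, or -0.14 without YAP1 heterozygote replicate 2. The upstream kinases and adaptors carried this list, with Stk4 at 111 and 87.5 CPM in WT and 89.7 and 75.7 CPM in YAP1 heterozygotes (-0.25 ± 0.21, adjusted p = 0.999 by edgeR), and the YAP targets Ccn1, Ccn2 and Ankrd1 had no UMI. Myh9 (chr15:77760587-77842175), the non-muscle myosin heavy chain in the title of the series, read 271 and 281 CPM in WT and 308 and 299 CPM in YAP1 heterozygotes (0.15 ± 0.16, adjusted p = 0.999 by edgeR).

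Transcripts of other cell types were seen both across the members and in single cells. S100a8 and S100a9, neutrophil genes limited by the rule, were seen in 296 and 297 of the 297 cells, and Hbb-bs in WT replicate 2 had 43 UMIs over 33 cells. The summed neutrophil list was at 2853 CPM in WT replicate 1 and 745 to 820 CPM in the other libraries, and 515 of 537 Elane UMIs and 388 of 421 Prtn3 UMIs in WT replicate 1 came from 1 cell. It had 10 of 11 tested genes lower in YAP1 heterozygotes (median -0.63), and without WT replicate 1 the median was 0.01. In YAP1 heterozygote replicate 2, 1 cell gave 265 of 320 Hbb-bs UMIs and 1 cell 210 of 212 Prss34 UMIs, a basophil protease gene; all 4 tested erythroid genes were higher in YAP1 heterozygotes (median 2.96), and without that library the median was -0.17, and with marked doublets removed it was 0.31. The summed level of B and plasma cell markers was 516 to 662 CPM, with 2 of 19 genes at 0 (Ms4a1, Mzb1), and that of macrophage markers was 190 to 304 CPM, with 2 of 12 at 0 (Cd5l, Spic). T, natural killer and innate lymphoid cell markers summed to 189 to 289 CPM, with Klrb1c and Ncr1 at 0. Plasmacytoid dendritic cell markers summed to 561 to 928 CPM, with 2 of 16 at 0 (Klk1, Pacsin1), beside 15000 to 17030 CPM in plasmacytoid dendritic cells. The part of these transcripts in the results was not tested. With the top cell of each gene taken out of every library, 0 genes were called and the NF-kB median was -0.58.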

How the data were processed

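The authors deposited UMI counts per gene and barcode for 32544 genes, with no normalization. Per the file headers they came from Cell Ranger 5.0.0; per the submitters' processing notes the tools include Seurat 4.3.0 and Cell Ranger 3.0.0, with builds GRCm38 and mm10, and which Cell Ranger version made the counts could not be settled. Reads that fit several near-identical genes can be lost in such counts. Per the labels' protocols the kit was 10x 3′ version 3.1. Gene positions came from GENCODE M21 (32460 identifiers matched).

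Members and lists were chosen with earlier results of these data known. Doublets were not removed in the main values: Scrublet (scanpy 1.11.5, 0.8% expected per 1000 barcodes) marked 3.42% to 4.39% of kept barcodes and 4 members. The UMI counts of a class were added up within each library and compared in edgeR 4.0.16 (filterByExpr, TMM, quasi-likelihood, Benjamini-Hochberg over all genes tested, threshold 0.05); DESeq2 1.42.0 was an alternative. The test between classes kept library as a term. Classical monocytes had at least 2 Ly6c2 UMIs, Ccr2, Csf1r and fewer than 10 class II UMIs, nonclassical monocytes at least 2 UMIs of Ace, Cd300e and Adgre4 and Csf1r, and plasmacytoid dendritic cells at least 2 Siglech UMIs and Ccr9 or Tcf4. Shares were compared by exact permutation of log2 shares. Scripts were tested on simulated data. Named genes were Yap1, Wwtr1, Myh9, the genes of the rule, and, as no gene was called, the 10 of smallest p in each direction with no overlap of the genotypes and a mean log2 CPM of 5 or more, without sex chromosome genes, plus members of the lists with the highest CPM. A gene that this rule names is not reported here. Within lists, further members are named for their role or value, chosen after their values were seen. Alternatives were other tests, filters, thresholds, thinning, and each library left out.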

Additional observations from a re-analysis of the deposited data

How the results depend on the processing

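The cDC share kept its direction under every alternative run (log2 difference -0.71 to -0.11 with 1 library left out). The cDC1 share ran from 0.53 to 0.88 with 1 library left out and reversed to -0.29 when thinned to 3000 UMIs. The cDC2 share difference of -0.0050 became 0.0423 when thinned, and -0.0937 to 0.0838 with 1 library left out, where dropping WT replicate 1 (0.0299) or the YAP1 heterozygote library of that number turned it positive. The count of 0 called genes in cDCs became 1 with DESeq2, 1 with class II at 20 UMIs, and 0 to 117 with 1 library left out; without a TMM factor, a low-count filter, doublets, Itgax-only members or top cells it stayed at 0. In cDC2 the count was 38 without a filter and 35 to 73 with 1 library left out. For the differences from classical monocytes, nonclassical monocytes and plasmacytoid dendritic cells, the counts were 26, 21 and 41 without a filter, 16, 0 and 3 with only the 2 classes fitted, and 0 to 9, 0 to 7 and 0 to 25 with 1 library left out. The causes were not tested. Replicate numbers are shared by the groups, but the labels do not say that they pair the libraries, and the deviations of same-numbered libraries correlated at 0.095 over 6818 genes. The numbers do coincide with the sex of the libraries. With a replicate block 27 genes were called in cDCs (5 higher, 22 lower), 1 in cDC2, and 3, 0 and 1 in the class comparisons. In the cDC and cDC2 tests that block left 1 degree of freedom for the spread between libraries. Shares keep their value under the block. Left-out fits assume that the lone library varies like the others. The genotype test in cDC1 and its alternatives were not run. The list medians under alternatives were added after the data were seen; among 8 lists, those of interferon, class II, neutrophil and erythroid genes changed sign with 1 library left out. With 45 to 86 cells a library, a 2-fold change would mostly be missed.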

Other observations

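The actin cytoskeleton, which shapes the dendrites of these cells and which Myh9 contracts, had 17 of 31 tested genes higher and 14 lower in YAP1 heterozygotes, with 0 called by edgeR and a median log2 fold change of 0.00. Actb, the main cytoplasmic actin gene, read 11420 and 11930 CPM in WT and 11380 and 11510 CPM in YAP1 heterozygotes. Endocytosis and lysosome genes had 17 of 31 higher and 14 lower, with a median of 0.06; Cst3 read 5218 and 5913 CPM in WT and 7114 and 6652 CPM in YAP1 heterozygotes without overlap (0.32 ± 0.14, adjusted p = 0.999 by edgeR).

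Among trafficking receptors, 9 of 16 tested genes were higher and 7 lower in YAP1 heterozygotes, with 0 called by edgeR and a median of 0.05. Ccr2, which draws cells out of the marrow, read 891 and 750 CPM in WT and 842 and 986 CPM in YAP1 heterozygotes, and Cxcr4, the marrow retention receptor, 307 and 175 CPM against 235 and 179 CPM. Among survival genes 8 of 12 were lower, with a median of -0.06 and 0 called by edgeR; Mcl1, an anti-apoptotic gene, read 823 and 803 CPM in WT and 876 and 677 CPM in YAP1 heterozygotes. Members holding both Cd209a and Xcr1 or Clec9a averaged 416 CPM of Irf8 and 288 CPM of Mgl2 over the 4 libraries. That Irf8 level lay between those of cDC2 and cDC1, and classical monocytes read 280 to 382 CPM. Whether these members carry the transcripts of both subsets was not tested.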
